A study of Rattus norvegicus with 9 samples.

Results

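The interferon regulatory factors (IRFs) are a family of transcription factors that share a DNA-binding domain and bind variants of the GAAA-rich interferon-stimulated response element. The members Irf1, Irf2, Irf3, Irf4, Irf5, Irf7, Irf8 and Irf9 were taken by gene symbol from the 38490 gene rows of each sample. All 8 members were listed, and 7 of them had expression values, among 18006 genes with a value. Irf8 had no value in any of the 9 samples, so its level was not analysed here.

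The RNA came from RBL-2H3, an established rat line of basophilic leukemia origin that carries the high-affinity IgE receptor and is used as a model of mast cells (MCs). The 3 samples labelled IgE/DNP (DNP) were sensitized with anti-DNP IgE at 50 ng/ml for 12 h and then challenged with the antigen DNP-HSA at 100 ng/ml for 4 h. The 3 samples labelled PF received the same IgE and antigen with a 1 h pretreatment with PF in between, a compound that neither the labels nor the paper's text identifies. The stimulation time of the PF samples is 4 h in one label, while another label gives 4, 5 and 6 h for replicates 1, 2 and 3. The 3 control samples (Ctrl) are called untreated in one label, but the treatment protocol attached to them describes sensitization and challenge, so whether they received IgE is not settled. The labels name peripheral blood and a blood corpuscle as tissue and cell type for what is a single established line, and they do not say whether replicates were separate cultures. P-values therefore measure only the spread between these samples.

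IRFs sit at several points of the interferon system. Irf3 and Irf7 are held in the cytoplasm until kinases downstream of nucleic acid sensors and Toll-like receptors phosphorylate them, after which they switch on type I interferon genes. Irf5 is activated downstream of Toll-like receptors through MyD88 and induces inflammatory cytokines. Irf9 joins STAT proteins, among them Stat2, in the complex that carries the type I interferon signal to interferon-stimulated genes. Irf1 is an activator that interferon-gamma induces, and Irf2 competes for the same element, mostly as a repressor. Irf4 and Irf8 are restricted largely to blood cells, where they bind DNA with partners such as PU.1 (Spi1) and BATF. In MCs and basophils, Irf8 is known for its part in the development of their progenitors.

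The expression values carry no stated unit and were read as FPKM, fragment numbers corrected for gene length and library depth. Levels of different genes are set side by side on that reading. Summed FPKM lay between 573023 and 630069 in all samples, and the PF samples (610206 to 630069) lay above all others. Read depth is unknown, but relative depth, estimated from the step size of the low values in 8 genes, lay between 0.980 and 1.02. Of 16 MC and basophil markers, 14 had a value and 13 had a mean of at least 1 FPKM. The summed level of these markers was 5626 to 5788 FPKM in Ctrl, 5521 to 5620 in DNP and 5690 to 5909 in PF samples. The tryptase genes Tpsab1 and Tpsb2 had no value. Srgn alone averaged 2780, 2840 and 2910 FPKM in Ctrl, DNP and PF samples, so the sum hides how single markers moved. In the same order, Mcpt8 averaged 18.6, 9.67 and 7.61 FPKM, and Mitf 16.8, 24.9 and 20.8. Markers of macrophages, B cells, dendritic cells, fibroblasts and erythroid cells summed to at most 1.15 FPKM in any sample, and those of T cells to between 6.96 and 10.3 FPKM, nearly all of it from Cd3e.

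Irf5 was the most abundant member and Irf3 the second in every group. In Ctrl samples the order of the mean levels was Irf5 (50.8 ± 0.321 FPKM, SD, n = 3), Irf3 (30.2 ± 1.42), Irf1 (25.3 ± 2.17), Irf2 (9.76 ± 0.549), Irf9 (6.51 ± 0.408), Irf4 (1.32 ± 0.115) and Irf7 (0.573 ± 0.231). No neighbours in this order overlapped. Among all genes with a value, Irf5 stood at the 89.2 percentile of Ctrl means, Irf1 at the 79.9 percentile and Irf4 at the 44.3 percentile. The order was the same in DNP samples, again with no overlap of neighbours. In PF samples Irf9 (3.10 ± 0.153 FPKM) and Irf2 (2.85 ± 0.198) overlapped, as did Irf4 (0.467 ± 0.0635) and Irf7 (0.397 ± 0.0611).

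**Figure D1:**
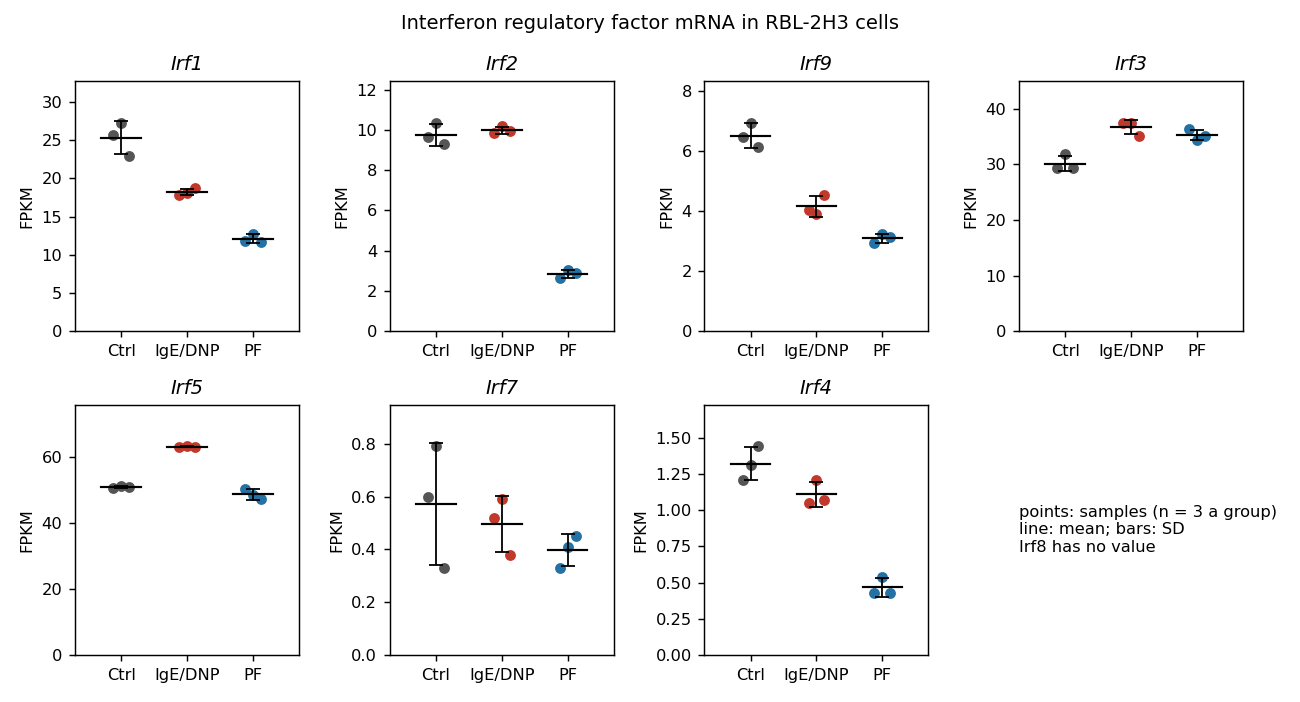
FPKM of the 7 members with a value in each of the 9 samples (y axis, FPKM, with its own scale in each panel), with 1 point per sample and a bar at each group mean. Irf2 lies between 9.28 and 10.36 FPKM in Ctrl and DNP samples and between 2.64 and 3.03 FPKM in PF samples, and Irf5 is highest in the 3 DNP samples.

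The first comparison asked how the family stood in DNP against Ctrl samples. Because it is not settled whether Ctrl received IgE, sensitization and antigen challenge cannot be told apart here. Below, "after antigen" is short for DNP against Ctrl samples. Irf1 and Irf9 were lower in DNP than in Ctrl samples, and Irf3 and Irf5 were higher, while Irf2 and Irf4 did not pass the test. Thus 4 of the 6 members tested were called, 2 in each direction, against 29.2% of all 10392 genes tested, with 14.7% called higher and 14.4% called lower. In bulk RNA, fewer expressing cells and less mRNA per cell cannot be told apart.

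Irf1 measured 25.66, 27.3 and 23 FPKM in the Ctrl samples and 17.9, 18.12 and 18.73 FPKM in the DNP samples. Every DNP sample lay below every Ctrl sample, and the mean fell by 27.9%. On the log2(FPKM + 1) scale the difference was -0.45 (SE 0.0626, limma adjusted p = 0.00157). The difference was the 230th from the lowest of 10392 genes.

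The promoter of Irf1 is shown because its letters hold matches to sites of 3 signal-dependent factor families. RefSeq promoter entries on the GRCr8 build were found for 7 of the 8 members, and Irf2 was not among them. The 250 bases before the Irf1 start are at chr10:38417685-38417934 on the plus strand. Capitals mark, from left to right, a GAS match (TTCNNNGAA, the element bound by STAT dimers) from -142 to -134, an EGR match (GCGNGGGCG) from -90 to -82 and an NF-kB consensus match from -65 to -56, counted from the start.

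Irf1: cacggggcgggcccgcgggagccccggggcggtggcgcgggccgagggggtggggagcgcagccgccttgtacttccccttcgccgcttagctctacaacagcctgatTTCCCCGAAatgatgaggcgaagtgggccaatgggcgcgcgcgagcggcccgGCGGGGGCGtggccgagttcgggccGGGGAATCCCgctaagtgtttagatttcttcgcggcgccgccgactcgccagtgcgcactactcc

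Both strands were searched, and the matches did not overlap. Over the same 250 bases, 7.67% of 33469 RefSeq promoters held the GAS letters, 4.29% the EGR letters and 6.33% the NF-kB consensus. A match is a description of the letters and not a measured site.

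Irf9 measured 6.45, 6.94 and 6.13 FPKM in Ctrl and 4.03, 3.9 and 4.55 FPKM in DNP samples. The groups did not overlap, and the mean fell by 36.1%. The log2 difference was -0.54 (SE 0.0767, limma adjusted p = 0.00169), the 124th from the lowest of all genes tested and the lowest of the family. Like Irf1, Irf9 carries a GAS match, in capitals here from -99 to -91, within 29 bases at chr15:33065727-33065755 on the plus strand of GRCr8.

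Irf9: accacgtgatTTCTAGGAActgcacctcc

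Irf3 measured 29.4, 31.8 and 29.29 FPKM in Ctrl and 37.38, 37.51 and 35.21 FPKM in DNP samples. All DNP samples were above all Ctrl samples, and the mean rose by 21.7% (log2 difference 0.28, SE 0.047, limma adjusted p = 0.0039). The 250 bases before the Irf3 start are shown as those of a member that rose. They lie at chr1:104616358-104616607 on the plus strand of GRCr8, and capitals mark an NF-kB consensus match from -29 to -20. They held no GAS, EGR, ISRE (GAAA and GAAA spaced by 2 bases) or AP-1 (TGANTCA) letters.

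Irf3: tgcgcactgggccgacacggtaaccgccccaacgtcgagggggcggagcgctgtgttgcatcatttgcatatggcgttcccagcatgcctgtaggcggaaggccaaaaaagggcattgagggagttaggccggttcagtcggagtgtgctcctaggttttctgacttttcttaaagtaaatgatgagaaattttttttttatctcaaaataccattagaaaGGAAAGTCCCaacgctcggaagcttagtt

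Irf5 measured 50.5, 51.11 and 50.63 FPKM in Ctrl and 62.82, 63.05 and 62.97 FPKM in DNP samples. The spread within each group was small beside the gap between them, and the mean rose by 24.0%. The log2 difference was 0.31 (SE 0.0307, limma adjusted p = 0.000391), the lowest p of the family in this comparison. Its promoter held an EGR match from -52 to -44.

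Irf2 measured 9.65, 10.36 and 9.28 FPKM in Ctrl and 9.83, 10.18 and 9.94 FPKM in DNP samples. The groups overlapped, and the log2 difference of 0.03 had a 95% interval from -0.10 to 0.16 (limma adjusted p = 0.725). Irf4, the blood-cell member, measured 1.21, 1.31 and 1.44 FPKM in Ctrl and 1.05, 1.21 and 1.07 FPKM in DNP samples. These groups also overlapped, with a log2 difference of -0.14, an interval from -0.35 to 0.07 and a limma adjusted p of 0.298. In total, 4 of the 6 members tested had groups that did not overlap, where 45.8% of all genes tested did.

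Irf7, which interferon strongly induces in most cells, measured 0.6, 0.79 and 0.33 FPKM in Ctrl, 0.52, 0.59 and 0.38 FPKM in DNP and 0.33, 0.41 and 0.45 FPKM in PF samples. It lay below the minimum of 1 FPKM in every sample and was not tested with the other genes. The groups overlapped in each comparison, and the exact two-sided permutation test over samples gave p = 0.7 for DNP against Ctrl, 0.3 for PF against DNP and 0.4 for PF against Ctrl. With 3 samples against 3 this test cannot go below 0.1. Irf7 was the only member whose promoter entry held an ISRE match, which 3.41% of promoters held. The match reads on the opposite strand, from -69 to -60, and is in capitals within 30 bases at chr1:205800073-205800102 on the minus strand of GRCr8.

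Irf7: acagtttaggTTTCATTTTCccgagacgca

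Of the other entries, that of Irf8 held 2 GAS matches and 1 EGR match, that of Irf4 held none of the motifs searched, and no member's entry held the AP-1 letters, which 6.34% of promoters held.

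The next comparison asked how the family stood in PF-pretreated, antigen-challenged cells against cells challenged with antigen alone. All members that passed the test were lower in PF samples, namely Irf1, Irf2, Irf4, Irf5 and Irf9, which is 5 of the 6 tested. Of all 10329 genes tested, 48.8% were called and 30.7% were called lower, so calls of this kind were common. In the values as given 1870 genes stood higher with PF and 3172 lower. The split was 2758 against 2600 after scaling samples by median ratios, and 869 against 4302 after bringing every sample to the same summed FPKM (sum scaling). The median log2 difference of all genes was -0.04 without scaling and 0.02 and -0.13 under these scalings. The 5 members were called lower under both.

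Irf2 showed the widest difference of the family. It measured 9.83, 10.18 and 9.94 FPKM in DNP samples and 2.64, 3.03 and 2.89 FPKM in PF samples, and was thus 3.50-fold lower with PF. The log2 difference of -1.51 (SE 0.0665, limma adjusted p = 7.8e-07) was the 53rd from the lowest of 10329 genes.

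Irf1, which had already been lower after antigen, was lower again with PF. Its PF samples measured 11.87, 12.75 and 11.72 FPKM, all below the 17.9 to 18.73 FPKM of the DNP samples (log2 difference -0.55, SE 0.0508, limma adjusted p = 3.79e-05). Irf9 measured 2.93, 3.23 and 3.13 FPKM in PF samples, below all DNP samples (3.9 to 4.55 FPKM). Its log2 difference was -0.33 (SE 0.0789, limma adjusted p = 0.00766).

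Irf5, the most abundant member, measured 50.23, 48.28 and 47.08 FPKM in PF samples against 62.82 to 63.05 FPKM in DNP samples, a fall by 22.9% (log2 difference -0.37, SE 0.0356, limma adjusted p = 5.07e-05). Irf4 measured 0.43, 0.54 and 0.43 FPKM in PF samples, less than each DNP sample. Its log2 difference was -0.52 (SE 0.0964, limma adjusted p = 0.00197). Irf4 passed the 1 FPKM minimum only through its DNP samples, and with the minimum required in every sample it dropped out and 4 of 5 members were called.

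Irf3 measured 36.37, 34.49 and 35.11 FPKM in PF samples and overlapped with DNP (35.21 to 37.51 FPKM). The log2 difference was -0.05, with an interval from -0.15 to 0.04 (limma adjusted p = 0.317). The scaling decided its sign and its call, with 0.01 after median ratios and -0.15 (limma adjusted p = 0.0264) after sum scaling. Over the members tested, 5 of 6 had groups that did not overlap, where 57.6% of all genes did. This count includes Irf4, whose place among the tested genes rested on its DNP samples alone.

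The PF samples were also compared with Ctrl. This comparison shares its samples with the other comparisons, so its values are given beside theirs and not as separate support. Of 6 members tested, 5 were called, Irf1, Irf2, Irf4 and Irf9 lower and Irf3 higher, while 57.7% of 10361 genes were called. Irf4 again passed the 1 FPKM minimum only through its higher group, here Ctrl, and with the minimum required in every sample 4 of 5 members were called, 1 higher and 3 lower. Among all genes, 2389 stood higher and 3586 lower without scaling, against 3142 and 3012 after median ratios and 1575 and 4316 after sum scaling. Lower calls made up 34.6% of the genes tested.

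Irf1 was 2.09-fold lower in PF than in Ctrl samples (log2 difference -1.003, SE 0.0687, limma adjusted p = 8.52e-06). Irf9 was 2.10-fold lower (log2 difference -0.87, SE 0.0728, limma adjusted p = 2.33e-05). For both, the order of the group means was Ctrl, DNP and PF from high to low, with no overlap between any of the groups.

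Irf2 was 3.42-fold lower in PF than in Ctrl samples, with a log2 difference of -1.48 (SE 0.0725, limma adjusted p = 1.74e-06), the 54th from the lowest of 10361 genes. Irf4 had a log2 difference of -0.66 (SE 0.0946, limma adjusted p = 0.000448), a call that the minimum favoured. With no minimum on low values it was called in both PF comparisons (limma adjusted p = 0.00127 against DNP and 0.000501 against Ctrl). In both members Ctrl and DNP samples overlapped and PF samples lay below both.

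In all, 6 of 6 members tested had groups that did not overlap, where 64.8% of all genes did. This count includes Irf4, whose place among the tested genes rested on its Ctrl samples alone. Irf3 was 17.1% higher in PF than in Ctrl samples (log2 difference 0.22, SE 0.0478, limma adjusted p = 0.0041), and was thus above Ctrl in both stimulated groups. Irf5 differed by -0.06 on the log2 scale, with an interval from -0.15 to 0.03 (limma adjusted p = 0.195), although its 3 PF samples (47.08 to 50.23 FPKM) all lay below its 3 Ctrl samples (50.5 to 51.11 FPKM). With scaling by median ratios the Irf5 difference was 0.003, and with sum scaling it was -0.14 and was called (limma adjusted p = 0.0169). With only the PF sample labelled 4 h in both labels kept, and its spread taken as that of the other groups, the same 5 members were called in each PF comparison. Irf2 then differed by -1.59 from DNP and by -1.56 from Ctrl.

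**Figure D2:**
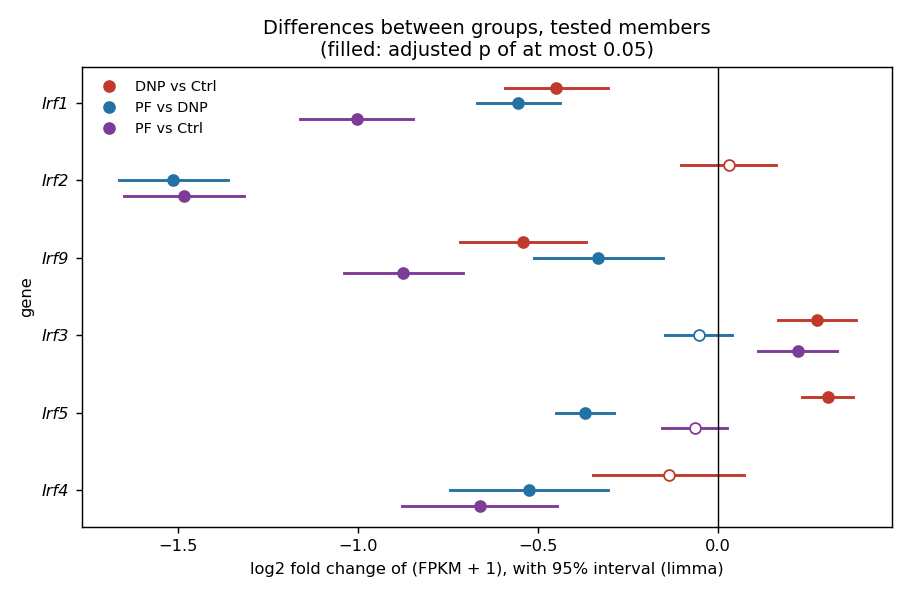
Log2 difference of each tested member (x axis, log2(FPKM + 1) scale) in the 3 comparisons, with points for the limma estimate, bars for its 95% interval and a line at 0. Irf2 is near 0 for DNP against Ctrl (0.03) and near -1.5 in both PF comparisons (-1.51 and -1.48), and the points of Irf3 lie above 0 in both comparisons with Ctrl (0.28 and 0.22).

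Since Irf1 and Irf2 bind the same element with opposite known effects, their ratio was followed in each sample. The FPKM of Irf1 over that of Irf2 was 2.66, 2.64 and 2.48 in Ctrl, 1.82, 1.78 and 1.88 in DNP and 4.5, 4.21 and 4.06 in PF samples. The ratio was therefore lowest in DNP and highest in PF samples, and no groups overlapped. The log2 ratio was taken after adding 1 to each FPKM, so it is not the log2 of the ratios just listed. It differed by -0.48 between DNP and Ctrl, by 0.96 between PF and DNP and by 0.48 between PF and Ctrl. With 0.1 added instead, the PF differences were 1.19 to DNP and 0.69 to Ctrl, and that between DNP and Ctrl moved little. The equal size of the shifts from Ctrl thus rested on the value added. Each difference had an exact two-sided permutation p of 0.1, the smallest that 3 against 3 allows. The ratio fell after antigen with the Irf1 level, and it was higher with PF, where both mRNAs were lower and Irf2 by more.

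The summed level of the family was 124 ± 4.82 FPKM in Ctrl (SD, n = 3), 134 ± 0.861 in DNP and 103 ± 2.00 in PF samples. Irf5 made up 40.8% ± 1.36 of this sum in Ctrl, 47.1% ± 0.276 in DNP and 47.2% ± 0.641 in PF samples. The share of Irf3 was 24.2% ± 0.382, 27.5% ± 0.828 and 34.4% ± 0.691 in the same order. Irf3 and Irf5 thus held a larger part of the family's mRNA in PF than in Ctrl samples, by more than the spread between replicates. The share of Irf1 was 20.3% ± 1.03, 13.7% ± 0.384 and 11.8% ± 0.560. That of Irf2 was 7.85% ± 0.136 in Ctrl, 7.47% ± 0.102 in DNP and 2.78% ± 0.228 in PF samples. Irf9 held 5.23% ± 0.125, 3.11% ± 0.276 and 3.01% ± 0.191. Irf4 and Irf7 held the rest.

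**Figure D3:**
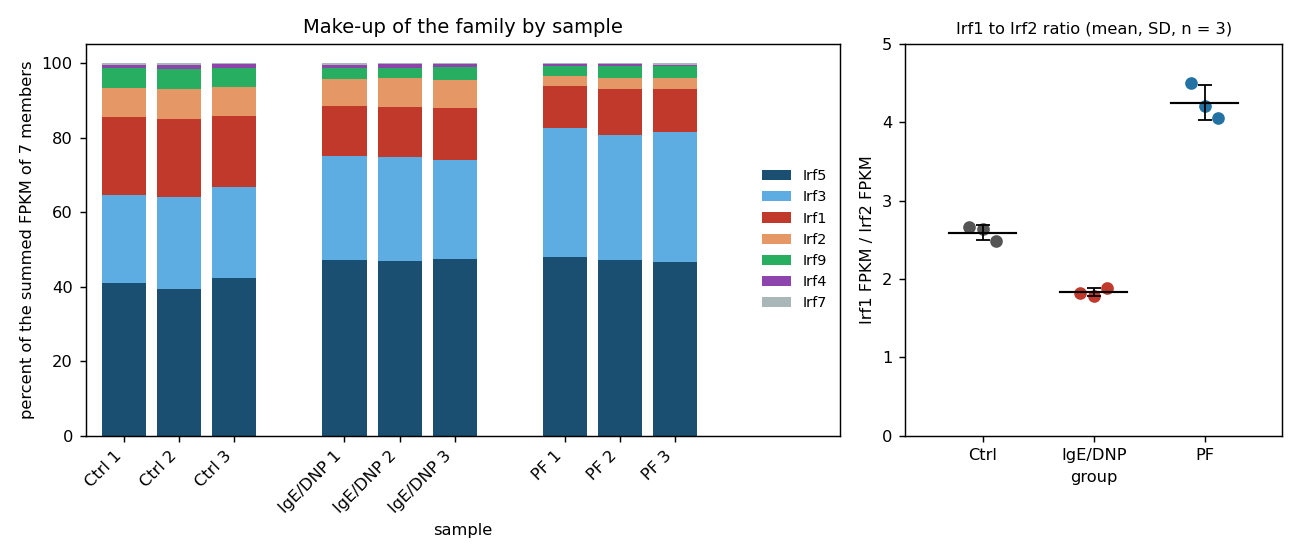
Share of each member in the summed FPKM of the family (y axis, percent, bars from 0) in each of the 9 samples, and in the right panel the FPKM ratio of Irf1 to Irf2 with 1 point per sample and lines for the mean and SD. Irf5 holds 40.8% on average in Ctrl and 47.2% in PF samples, Irf3 goes from 24.2% to 34.4%, and Irf2 is 7.85% in Ctrl and 2.78% in PF samples, while the ratio averages 2.59, 1.83 and 4.25 in Ctrl, DNP and PF samples.

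The genes around the family were described by lists of the interferon system, since the IRFs stand between its ligands and its targets. Some genes stand in more than 1 list, and the share of each list that was called is given beside the share of all genes called, which was 29.2% for DNP against Ctrl, 48.8% for PF against DNP and 57.7% for PF against Ctrl. At the level of the ligands, 6 of 11 interferon genes had a value, none was tested, and the highest value in any sample was 0.37 FPKM.

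Of 22 genes for interferon receptors and JAK-STAT signalling, all were tested. In DNP against Ctrl 4 were higher, 6 lower and 12 did not pass, so 45.5% were called against 29.2% of all genes, with a median log2 difference of 0.00. With PF against DNP 1 was higher, 14 lower and 7 did not pass (68.2% called against 48.8%), with a median of -0.33 against -0.04 over all genes. Against Ctrl the PF samples again had 1 higher and 14 lower (68.2% called against 57.7%), with a median of -0.43. In both PF comparisons the higher gene was Ptpn6, a phosphatase that dampens receptor signals, named after its values were seen. Against DNP, no gene of the list was higher with sum scaling, all 3 groups in the fit, a replicate block or limma without trend. The same held without DNP replicate 1 or 2 and without PF replicate 1 or 2, while median-ratio scaling gave 2 higher.

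Ifnar1, a chain of the type I interferon receptor, was lower at each step, at 8.03 ± 0.565 FPKM in Ctrl, 6.48 ± 0.265 in DNP and 4.64 ± 0.306 in PF samples. Its partner chain Ifnar2 measured 6.74 ± 0.743, 6.76 ± 0.620 and 4.16 ± 0.707 FPKM, and the fall with PF against DNP passed the test (limma adjusted p = 0.00203). The interferon-gamma receptor chain Ifngr1 fell from 44.9 ± 0.613 to 41.2 ± 0.535 FPKM after antigen and was 31.3 ± 0.686 with PF. Ifngr2 rose from 42.0 ± 2.42 to 47.1 ± 1.01 FPKM and was 22.9 ± 1.36 with PF (log2 difference to DNP -1.01, SE 0.048, limma adjusted p = 1.05e-06). Ifnlr1, of the type III receptor, measured 2.56 ± 0.132, 2.60 ± 0.110 and 1.26 ± 0.248 FPKM.

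Stat2, a partner of Irf9, fell from 28.0 ± 1.82 to 22.0 ± 0.595 FPKM after antigen (log2 difference -0.34, SE 0.053, limma adjusted p = 0.00281) and was 22.3 ± 0.251 with PF. Like Irf9, it was lower in DNP than in Ctrl samples. Among the feedback inhibitors, Socs3 rose from 9.43 ± 0.349 to 17.7 ± 2.04 FPKM after antigen and was 3.61 ± 0.555 with PF, and Socs1 measured 17.5 ± 0.722, 17.8 ± 1.91 and 5.38 ± 1.31 FPKM.

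The sensors, adaptors and kinases that activate Irf3, Irf5 and Irf7 included 20 tested genes. After antigen 4 were higher and 3 lower, with a median of -0.05, and the share called (35%) was close to that of all genes (29.2%). With PF against DNP none was higher and 14 were lower (70% called against 48.8%, median -0.31). With PF against Ctrl 2 were higher and 17 lower (95% called against 57.7%, median -0.46). With median-ratio scaling, 2 were higher and 12 lower against DNP, and with sum scaling none was higher and 15 were lower. Ticam1, the adaptor that links Toll-like receptors to Irf3, measured 11.15, 11.64 and 12.76 FPKM in Ctrl, 19.05, 18.45 and 18.84 FPKM in DNP and 2.42, 3.4 and 2.86 FPKM in PF samples. The log2 difference was 0.62 for DNP against Ctrl (limma adjusted p = 0.000235) and -2.35 for PF against DNP (limma adjusted p = 3.96e-07), so this adaptor rose after antigen as Irf3 did but, unlike Irf3, was far below Ctrl with PF.

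The kinases that phosphorylate Irf3 differed from each other. Ikbke rose from 3.50 ± 0.257 to 5.96 ± 0.235 FPKM after antigen and was 7.03 ± 0.670 with PF, where the difference to DNP did not pass the test (limma adjusted p = 0.0518). Tbk1 measured 40.5 ± 2.32, 42.8 ± 0.990 and 34.4 ± 1.84 FPKM, and was lower with PF than in DNP samples (limma adjusted p = 0.000659). Among the others, the ubiquitin ligases Traf3 (9.84 ± 0.140, 9.93 ± 0.259 and 5.65 ± 0.0208 FPKM) and Traf6 (9.70 ± 0.664, 10.6 ± 0.769 and 5.47 ± 0.624) were lower with PF than in both other groups. The RNA sensor Ifih1 (15.1 ± 0.346, 14.1 ± 0.724 and 6.89 ± 0.503 FPKM) and the DNA sensor Cgas (3.36 ± 0.570, 3.37 ± 0.257 and 1.56 ± 0.0493) were also lower with PF than in both other groups.

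Of the partners and regulators of IRFs, 23 genes were tested. After antigen 7 were higher and 2 lower (39.1% called against 29.2% of all genes, median 0.05). With PF against DNP 3 were higher and 14 lower (73.9% called against 48.8%, median -0.22). With PF against Ctrl 7 were higher and 12 lower (82.6% called against 57.7%, median -0.29). The scaling moved these counts. Against DNP they were 5 higher and 13 lower after median ratios, and 1 higher and 15 lower after sum scaling. Against Ctrl they were 8 higher and 12 lower, and 4 higher and 13 lower. The 2 genes lower after antigen were Nfatc1 and the coactivator Ep300, the latter named after its values were seen. Spi1, the partner of Irf4 and Irf8, measured 79.8 ± 3.84, 84.3 ± 2.00 and 84.8 ± 3.94 FPKM and passed the test in no comparison. Batf, another partner of Irf4, measured 37.6 ± 4.46, 36.9 ± 2.21 and 26.5 ± 1.37 FPKM and was lower with PF than in DNP samples (limma adjusted p = 0.000192), while Batf3 was higher (3.18 ± 0.337 in DNP and 5.32 ± 0.689 FPKM in PF samples, limma adjusted p = 0.00121).

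Nfkb1, an NF-kB subunit, rose from 44.5 ± 0.980 to 50.2 ± 0.862 FPKM after antigen and was 20.2 ± 1.07 with PF. Nfatc1, a calcium-responsive factor, was lower at each step, at 25.3 ± 1.01, 20.0 ± 0.216 and 10.5 ± 0.0981 FPKM. The corepressors first found as Irf2-binding proteins were also measured. Irf2bp2 rose from 58.1 ± 1.02 to 62.8 ± 1.37 FPKM after antigen and was 47.2 ± 1.10 with PF. Irf2bpl measured 11.8 ± 0.756, 11.6 ± 0.834 and 6.86 ± 0.583 FPKM, lower with PF than in DNP samples as Irf2 was (limma adjusted p = 0.000118). Irf2bp1 measured 3.54 ± 0.617, 2.82 ± 0.186 and 2.47 ± 0.220 FPKM, and only its difference between PF and Ctrl passed the test (limma adjusted p = 0.0157).

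Downstream of the family, 69 of 72 listed interferon-stimulated genes had a value. The ones used most often as readouts of the type I response were hardly expressed, with Isg15, Ifit1, Ifit2, Ifit3, Mx1 and Rsad2 at no more than 0.47 FPKM in any sample, a set chosen after its values were seen. Of the 42 genes tested for DNP against Ctrl, 2 were higher, 16 lower and 24 did not pass (42.9% called against 29.2% of all genes), with a median of -0.14 against -0.01 over all genes. The higher genes were Slfn2 and Usp18, named after their values were seen. With PF against DNP, 5 of 41 were higher and 18 lower (median -0.13). The share called was 56.1% against 48.8% of all genes, of which 18.1% were called higher and 30.7% lower. With PF against Ctrl 5 of 42 were higher and 26 lower (73.8% called against 57.7%, median -0.33). With median-ratio scaling the PF against DNP counts were 8 higher and 16 lower, and with sum scaling 4 higher and 21 lower.

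Cd274, which encodes PD-L1 and is a known Irf1 target, measured 146.44, 136.14 and 143.23 FPKM in Ctrl, 118.69, 124.48 and 120.49 FPKM in DNP and 68.37, 67.24 and 71.25 FPKM in PF samples. The groups followed the order of Irf1 without overlap, with log2 differences of -0.23 for DNP against Ctrl (SE 0.038, limma adjusted p = 0.00353) and -0.81 for PF against DNP (SE 0.036, limma adjusted p = 7.8e-07). Slfn13 (23.3 ± 1.45, 18.2 ± 1.09 and 8.93 ± 0.873 FPKM) and the exonuclease gene Isg20 (40.2 ± 3.96, 34.2 ± 0.852 and 18.6 ± 2.00) stood in the same order and were called in both steps. Oasl (6.82 ± 0.933, 6.44 ± 0.461 and 3.17 ± 0.368 FPKM) and Trim21, a ubiquitin ligase for IRFs (5.92 ± 0.271, 6.33 ± 0.101 and 3.35 ± 0.274), were called lower with PF and not after antigen.

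Of the known Irf1 targets of antigen processing, more were higher than lower with PF, while Irf1 itself was lower. Of 12 tested, 1 was higher and 2 lower after antigen, a share called (25%) near that of all genes (29.2%). With PF against DNP 7 were higher and 1 lower (66.7% called against 48.8%, median 0.15 against -0.04 over all genes). With PF against Ctrl 6 were higher and 1 lower (58.3% called against 57.7%, median 0.17). These counts moved with the scaling. Against DNP they were 9 higher and 0 lower after median ratios and 5 higher and 1 lower after sum scaling, and against Ctrl the latter gave 3 higher and 2 lower. The higher genes included the immunoproteasome subunit genes Psmb8 (261 ± 7.39 FPKM in DNP and 308 ± 11.8 in PF samples) and Psmb10 (21.7 ± 0.969 and 28.0 ± 3.28). The proteasome activator Psme1 (65.4 ± 1.18 and 76.2 ± 2.82 FPKM) and the peptide-loading gene Tapbpl (3.03 ± 0.316 and 4.35 ± 0.561) were also higher. The gene lower in both PF comparisons was the peptide transporter Tap1, which was lower after antigen together with B2m, both named after their values were seen.

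**Figure D4:**
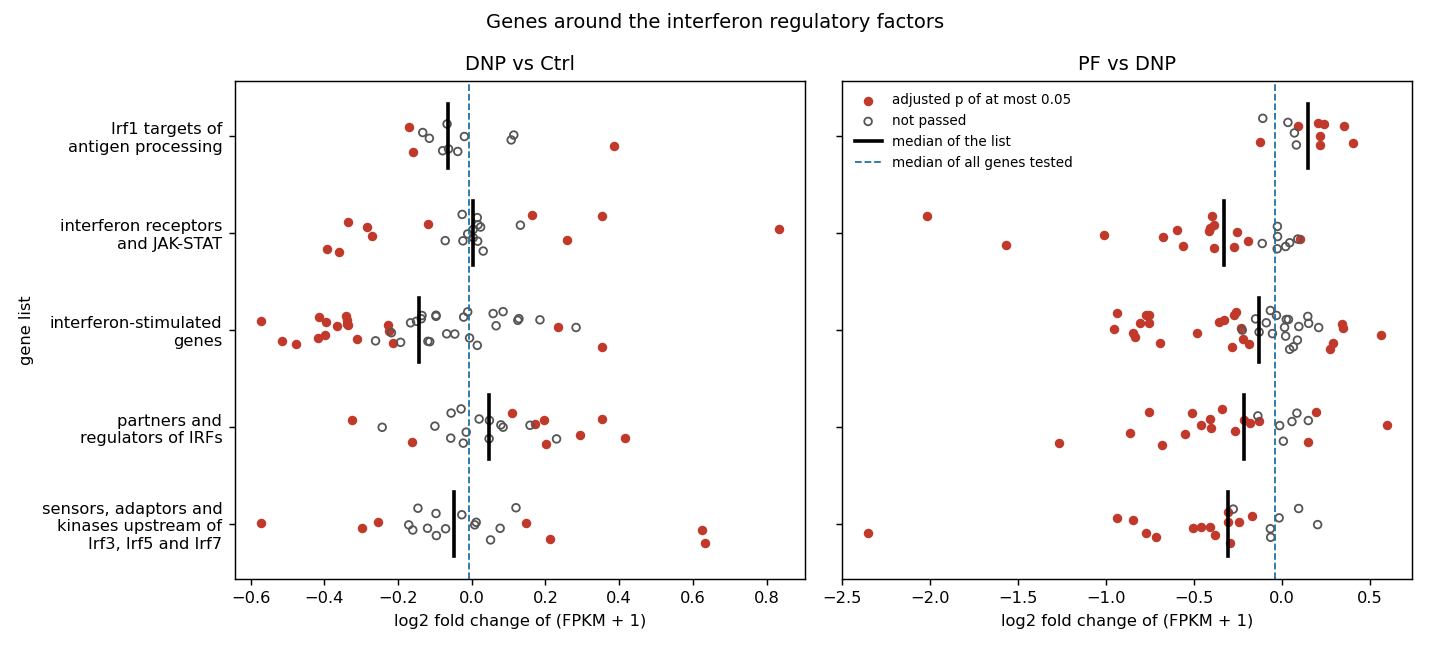
Log2 difference of every tested gene of the lists around the family (x axis, log2(FPKM + 1) scale) for DNP against Ctrl on the left and PF against DNP on the right (x ranges differ between panels), with filled points for genes past the threshold, open points for the others, a bar at each list's median and a dashed line at the median of all genes. In PF against DNP the medians are -0.33 for receptors and JAK-STAT, -0.31 for sensors, adaptors and kinases, -0.22 for partners, -0.13 for interferon-stimulated genes and 0.15 for the antigen-processing targets of Irf1.

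The genes whose pattern was most like that of each member were sought among 10271 genes by Pearson's r of log2(FPKM + 1) over the 9 samples. These samples fall into 3 groups and share their libraries, so r mostly describes the order of the group means. For Irf1 they were Sp110, itself an interferon-stimulated gene, with r = 0.992, and Mapk7 and Shc1 with r = 0.991 each. For Irf2 they were Elmsan1, Traf3 and Zc3h4, each with r = 0.998. Elmsan1 averaged 13.1 FPKM in Ctrl, 14.1 in DNP and 4.12 in PF samples, so it too was lowest with PF. The genes most like Irf9 were Mplkip (r = 0.994), Tp53inp2 (0.991) and Fam219a (0.989), all with their highest mean in Ctrl and their lowest in PF samples. For Irf5 they were Maff (r = 0.987), Vegfc (0.986) and Tle3 (0.984), of which Maff averaged 2.96, 8.50 and 1.86 FPKM in Ctrl, DNP and PF samples. Those most like Irf3 reached lower values, with Tmem150a at r = 0.958, Man2c1 at 0.957 and LOC102550385 at 0.953.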

How the data were processed

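RNA was measured in 9 samples of RBL-2H3 cells, 3 per group. According to the paper's methods and the submitters' processing notes, the authors cleaned BGISEQ-500 reads (SOAPnuke), used HISAT2 2.0.4 and Bowtie2 2.2.5 for alignment (build rn6) and RSEM 1.2.12 for quantification, whereas the labels name Illumina library protocols. The deposited values were read as FPKM, because RSEM gives that unit, the values have decimals and the samples sum to different totals. Their heading says only expression, and normalization to gene length and depth can shift with the summed level of other genes. Counts were not used here, so no count test was run and the precision rests on the replicates.

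Samples were grouped by their labels. A gene was tested if 3 or more of the 6 compared samples reached 1 FPKM. The test was limma 3.58.1 under R 4.3.3 (a linear fit with moderated variances that follow the mean level) on log2(FPKM + 1), with Benjamini-Hochberg adjustment over all genes and a threshold of 0.05. This scale understates the change of low genes. Each comparison used its own samples, and each group entered more than 1 comparison. Ratios were tested with an exact permutation test in Python 3.11.15 with scipy 1.17.1. Only the limma test was checked on simulated data, and only for DNP against Ctrl.

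Members and lists were chosen with earlier results of these data known. The genes named from the lists were up to 5 called genes per list with the largest absolute log2 difference in DNP vs Ctrl or PF vs DNP and a mean of at least 1 FPKM, with Stat2, the interferon receptor chains, Spi1, Batf, Ticam1, Tbk1, Ikbke and the Irf2-binding proteins whatever their values. Some genes that this rule names are not reported here. For each member with a mean of at least 1 FPKM over the 9 samples, the 3 genes most like it were named. Promoter sequences came from RefSeq (GRCr8), which is not the build of the files, and were matched by gene. Alternatives were another pseudocount, other filters, 2 scalings, limma without trend, all groups in the fit, a replicate block, each sample left out in turn, a threshold of 0.01 and only the PF sample labelled 4 h.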

Additional observations from a re-analysis of the deposited data

How the results depend on the processing

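Of 259 log2 differences of members recomputed under the alternatives, 254 moved neither in direction nor across the threshold, and 3 changed sign, none of them past the threshold. Irf2 in DNP against Ctrl ranged from -0.002 to 0.070 as each replicate was left out, the lowest without Ctrl replicate 3. Scaling by median ratios turned Irf3 in PF against DNP to 0.009 and Irf5 in PF against Ctrl to 0.003. Bringing each sample to the same summed FPKM took these 2 differences past the threshold, at -0.150 and -0.142, so that 6 of 6 members were called in each PF comparison. At a threshold of 0.01, 1469 genes were called in DNP against Ctrl, in place of 3031, and the 4 members were still called. The cause of these shifts was not tested beyond the scalings themselves.

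Leaving out each replicate gave 2099 to 2736 genes called in DNP against Ctrl, 4138 to 4796 in PF against DNP and 5147 to 5541 in PF against Ctrl. Irf4 could not be tested in the PF comparisons without a DNP or a Ctrl replicate, since too few samples then reached 1 FPKM, and 4 of 5 members were called there. The labels tie samples with the same replicate number by that number alone. Their deviations correlated between -0.0822 and 0.0514 in the comparisons with DNP samples. In PF against Ctrl the correlations were 0.0908, 0.189 and 0.083 for replicates 1, 2 and 3, all small and positive. The main test did not pair the samples by number, and a shared replicate effect was not tested beyond the replicate block. With the replicate block 2697, 4675 and 6009 genes were called in the 3 comparisons and no call of a member changed. Members below 1 FPKM are limited most by depth, which is unknown in reads.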
